A study of Rattus norvegicus with 2 samples.

Results

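The expression of 10 genes that dispose of superoxide, peroxide and reactive electrophiles was compared between endothelial cells cultured from the aorta and from the heart chambers of rats. They were taken by symbol: Sod1, Sod2 and Sod3 for superoxide, Cat, Gpx1 and Prdx1 for peroxide, Txn1 and Txnip for thioredoxin, and Gstp1 and Nqo1 for glutathione conjugation and quinone reduction. All non-control probe sets whose platform annotation gives exactly 1 gene symbol, equal to one of these, were used, which gave 19 probe sets for 9 of the 10 genes, among 4736 genes on the array. Txn1, thioredoxin itself, had no such probe set and is not measured here. The 2 groups were aortic endothelium and endocardial endothelium, which lines the heart chambers. Cells of both came from the same 2 rats, were pooled by origin, and were grown for 2 passages with culture conditions and confluence matched as closely as possible. Each pool's total RNA was hybridised to its own Affymetrix rat genome U34A array, so there were 2 groups with 1 array each, and no difference below has a replicate check or a p-value. The labels used here name no treatment, and give no strain or age of the rats.

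Superoxide is converted to hydrogen peroxide by superoxide dismutases, of which Sod1 acts in the cytosol, Sod2 in the mitochondrial matrix and Sod3 outside the cell. Hydrogen peroxide is then removed by catalase, by glutathione peroxidases and by peroxiredoxins, and the last of these are recycled by thioredoxin, which Txnip binds and inhibits. In vessels, extracellular superoxide dismutase is known for protecting nitric oxide from superoxide on its way between endothelium and smooth muscle. Nqo1, Gstp1, Prdx1, Txn1 and the heme oxygenase gene Hmox1 are known targets of the transcription factor encoded by Nfe2l2 (Nrf2), which acts through the antioxidant response element.

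Intensities are in the linear units of the array after both arrays were scaled to the same 2% trimmed mean, and ratios are endocardial over aortic. A probe set was kept when at least 1 of its values exceeded a floor of 635.4, the median of all scaled values, and values under the floor were raised to it, so a fold against the floor is a lower bound. The highest value among 38 background control probe sets, 1742.4, is called the background limit here. Ratios of the members and counts past 2-fold that change when it is used as the floor are given both ways. Of the 19 probe sets, 17 were kept, 15 were above the floor on both arrays and 13 were above the background limit on both. The value of a gene is the median log2 ratio over its kept probe sets.

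The make-up of the cultures was read from marker genes. Of 12 pan-endothelial markers 5 were measured. Over the list's 17 probe sets the summed intensity (values below 0 counted as 0) was 14516 with aortic and 15069 with endocardial RNA. Of the 5, 1 passed 2-fold upward (Ets1) and 1 downward (Ace), against 5.93% and 4.16% of all measured genes. With the background limit as the floor, 4 were measured and 0 passed 2-fold either way, against 3.99% and 2.36%. Neither array put Vwf, Pecam1, Kdr or Icam2 over the floor, and no probe set was paired with Cdh5, Tek or Eng alone, so the endothelial identity of the cells is taken from their labels. Over 28 probe sets of macrophage and leukocyte markers the summed intensity (values below 0 counted as 0) was 19916 with aortic and 75973 with endocardial RNA. Lyz2 alone, on 1 probe set, read 288 and 33620. Of the 12 measured genes 10 had a log2 ratio above 0 and 2 below. Of the 12, 7 passed 2-fold upward and 0 downward, against 5.93% and 4.16% of all measured genes. With the background limit as the floor these were 2 and 0 of 9, against 3.99% and 2.36%. Csf1r and Itgam were under the floor on both. Smooth muscle markers summed to 225295 and 322291 over 13 probe sets, with 2 of 6 genes upward and 1 downward (1 and 0 against the background limit). Fibroblast markers summed to 905943 and 703745 over 29 probe sets, with 1 of 11 upward and 2 downward with either floor. These counts stand against the same shares of all genes. On each array the smooth muscle and the fibroblast sums were larger than the pan-endothelial one. Sod3 is known to be made by smooth muscle cells and macrophages as well, and the part of these markers in the Sod3, Txnip and Nqo1 differences was not tested. In bulk RNA, a change in the share of a cell type and a change in RNA per cell cannot be told apart.

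The 2 arrays differed most for Sod3 and Txnip, which were brighter with endocardial RNA, and for Nqo1, which was brighter with aortic RNA. Of the 9 measured genes, 2 were past 2-fold in the endocardial direction, against 5.93% of all 2935 measured genes, and 1 was past 2-fold in the aortic direction, against 4.16%. The other 6 genes lay between. With the background limit as the floor the counts among the 9 were again 2 and 1, and the shares among the 1904 genes then measured were 3.99% and 2.36%. By probe set, 5 of the 17 kept passed 2-fold upward (6.82% of all 3975 kept probe sets with 1 symbol) and 1 passed it downward (4.7%). The median log2 ratio of the 9 genes was -0.16, and that of all measured genes was -0.02. The genes differed in direction, 4 being above 0 and 5 below, so their median describes none of them well.

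**Figure D1:**
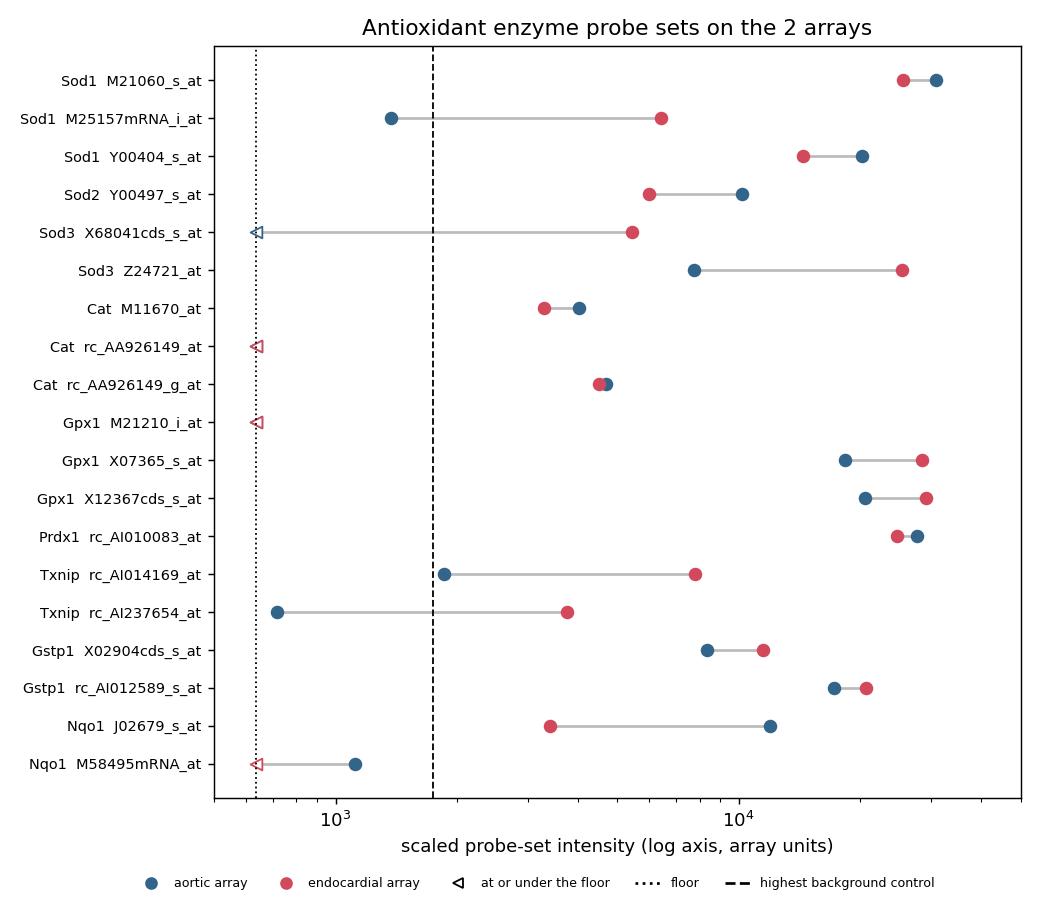
Scaled intensity (log axis) of each of the 19 probe sets on the aortic array (blue) and the endocardial array (red), 1 value per array, joined by a line. Open triangles mark values at or under the floor of 635.4 (dotted line), where the endocardial triangle covers the aortic one for a Cat and a Gpx1 probe set, and the dashed line is the background limit (1742.4). Both Sod3 and both Txnip probe sets are higher on the endocardial array, and both Nqo1 probe sets are lower.

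Among the superoxide dismutases the extracellular, mitochondrial and cytosolic enzymes gave 3 different pictures. Sod3 was read by 2 probe sets. Z24721_at read 7756 with aortic and 25411 with endocardial RNA, a 3.28-fold difference (log2 ratio 1.71) with both values well over the background limit. X68041cds_s_at was below 0 with aortic RNA (-77.5) and read 5427 with endocardial RNA, at least 8.54-fold higher against the floor and at least 3.11-fold higher against the background limit. The aortic array thus gave a clear signal on one Sod3 probe set and none on the other, while the endocardial array gave a clear signal on both. The median of the 2 log2 ratios, 1 measured and 1 a bound, corresponds to 5.29-fold against the floor and 3.19-fold against the background limit, and the probe set measured on both arrays gave 3.28-fold. Of 2032 probe sets with 1 symbol that were above the background limit on both arrays, Z24721_at had the 13th highest ratio.

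Sod2, the manganese enzyme of mitochondria, rested on 1 probe set and went the other way. Y00497_s_at read 10190 with aortic and 5997 with endocardial RNA, 1.70-fold lower (log2 ratio -0.76), which is short of 2-fold. That ratio was the 95th lowest of the same 2032.

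Sod1, the copper and zinc enzyme of the cytosol, was read by 3 probe sets that disagreed. M21060_s_at read 30929 with aortic and 25597 with endocardial RNA (log2 ratio -0.27). Y00404_s_at read 20253 and 14410 (log2 ratio -0.49). M25157mRNA_i_at read 1371 and 6412 (log2 ratio 2.23), higher on the endocardial array, with an aortic value under the background limit; against that limit it was at least 3.68-fold higher. The pair with suffix s therefore put Sod1 slightly lower with endocardial RNA, and the third probe set put it several-fold higher. The median of the 3 is -0.27, and no single direction can be given for Sod1 from these probe sets.

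The 3 peroxide-removing enzymes were within 2-fold. Cat, the peroxisomal catalase, read 4024 with aortic and 3299 with endocardial RNA for M11670_at (log2 ratio -0.29), and 4700 and 4513 for rc_AA926149_g_at (log2 ratio -0.06). The partner probe set of the latter by name, rc_AA926149_at, was under the floor on both arrays, at 332.9 and 74.7. Catalase was therefore within 1.22-fold on both probe sets that gave a signal.

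Gpx1, the cytosolic selenium-dependent glutathione peroxidase, was higher on the endocardial array with both probe sets that gave a signal. X07365_s_at read 18346 with aortic and 28547 with endocardial RNA, 1.56-fold higher. X12367cds_s_at read 20559 and 29159, 1.42-fold higher. These were the 145th and 223rd highest ratios of the 2032. The gene's log2 ratio was 0.57, short of 2-fold. A further Gpx1 probe set, M21210_i_at, was below 0 on both arrays (-1437 and -746.3) and was not kept.

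Prdx1, a cytosolic peroxiredoxin that thioredoxin recycles, rested on rc_AI010083_at, reading 27684 with aortic and 24746 with endocardial RNA (log2 ratio -0.16). Of the peroxide enzymes, then, Gpx1 read modestly higher, while Cat and Prdx1 lay closer to 0.

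**Figure D2:**
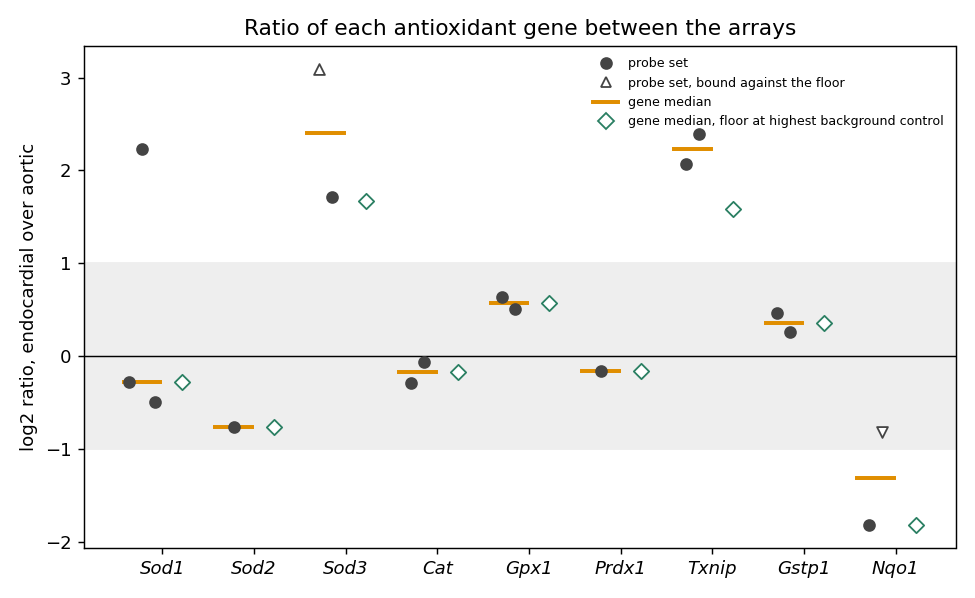
Log2 ratio, endocardial over aortic, of each kept probe set (dots, or open triangles where 1 array was at or under the floor and the ratio is a bound), the gene median (orange bars) and the median with the background limit as the floor (green diamonds), for the 9 measured genes. The grey band is the range within 2-fold. Sod3 (2.40) and Txnip (2.23) lie above it and Nqo1 (-1.32) below it with either floor, and 1 of the 3 Sod1 probe sets stands apart from the other two.

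Txnip, the thioredoxin inhibitor and a gene known to respond strongly to glucose, was higher on the endocardial array with both of its probe sets. The first, rc_AI014169_at, read 1862 with aortic and 7814 with endocardial RNA, 4.20-fold higher (log2 ratio 2.07), the 5th highest ratio of the 2032. The aortic value of that probe set is close above the background limit. The other, rc_AI237654_at, read 715.8 and 3753, 5.24-fold higher against the floor, but with an aortic value under the background limit it was at least 2.15-fold higher against it. The median of the 2 log2 ratios corresponds to 4.69-fold with the floor at 635.4 and to 3.01-fold with the background limit as the floor. Both probe sets were dim with aortic RNA and clearly over the background limit with endocardial RNA.

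Other genes of the thioredoxin system lay within 2-fold. Mitochondrial thioredoxin, Txn2, had a log2 ratio of 0.10, reading 9935 with aortic and 10637 with endocardial RNA. The cytosolic thioredoxin reductase gene Txnrd1 had a log2 ratio of -0.11, from -0.24 to 0.02 over 2 probe sets. The mitochondrial reductase gene Txnrd2 exceeded the floor only on the endocardial array, at 655.2, and was under the background limit on both.

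Nqo1, the quinone reductase that uses NADH or NADPH, was the only one of the 9 that was at least 2-fold lower on the endocardial array. J02679_s_at read 11958 with aortic and 3399 with endocardial RNA, 3.52-fold lower (log2 ratio -1.82), the 10th lowest ratio of the 2032. M58495mRNA_at read 1119 with aortic RNA and was below 0 with endocardial RNA (-63.7). That probe set was at least 1.76-fold lower against the floor, but both its values were under the background limit, so it does not show a difference by that limit. The median of the 2 log2 ratios, 1 measured and 1 a bound, corresponds to 2.49-fold lower, and rests on J02679_s_at alone with the background limit as the floor.

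Gstp1, the pi-class glutathione transferase that conjugates electrophiles, was slightly higher on the endocardial array. X02904cds_s_at read 8326 with aortic and 11461 with endocardial RNA (log2 ratio 0.46). The other probe set, rc_AI012589_s_at, read 17228 and 20651 (log2 ratio 0.26). Nqo1 and Gstp1 thus lay on opposite sides of 0. Of the 7 member genes with several kept probe sets, 6 had the same sign on all of them, the exception being Sod1.

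Over 625 genes with several probe sets that exceeded the floor on each array, the log2 ratios of a gene's probe sets had a pooled SD of 0.39. It measures how far probe sets of a gene differ on these arrays, not how far cultures differ. The median log2 ratios of Sod3, Txnip, Nqo1, Sod2 and Gpx1 exceeded it in size, and those of Sod1, Cat, Prdx1 and Gstp1 were inside it. The SD among the probe sets of a single gene was 1.51 for Sod1, 0.98 for Sod3 and 0.71 for Nqo1. For Sod3 and Nqo1 it includes a bound. It ran from 0.09 to 0.23 for Gpx1, Gstp1, Cat and Txnip.

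**Figure D3:**
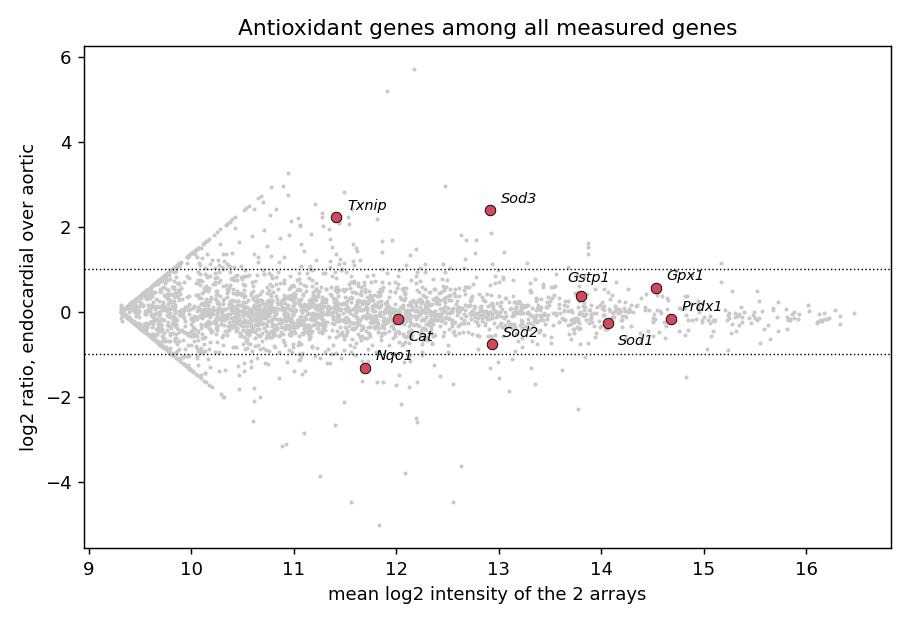
Log2 ratio, endocardial over aortic, against the mean log2 intensity of the 2 arrays for the 2935 measured genes (grey, values under the floor raised to it) and the 9 measured antioxidant genes (red). Dotted lines mark 2-fold. Sod3, Txnip and Nqo1 lie outside the lines, and the other 6 lie between them.

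Promoters of the antioxidant genes were read because Nqo1, Gstp1 and Prdx1 are known targets of the same transcription factor and had log2 ratios of -1.32, 0.36 and -0.16 here. In a RefSeq promoter table (rat assembly GRCr8), 8 of the 10 members matched, all but Sod3 and Txnip, whose promoters were not searched. The antioxidant response element core was searched as TGACNNNGC on both strands in the 250 bases before the annotated start, and was found in 3 of the 8 promoters, those of Gstp1, Prdx1 and Sod2, and in 10.1% of all 33469 promoters of the table. The 3 promoters with a match are shown with the match in capitals, and that of Nqo1, the member that was lower by the largest ratio, is shown beside them. Bases further upstream were not searched, so the lack of a match in these 250 bases does not show that Nqo1 lacks the element.

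Gstp1 (chr1:210769706-210769955, minus strand): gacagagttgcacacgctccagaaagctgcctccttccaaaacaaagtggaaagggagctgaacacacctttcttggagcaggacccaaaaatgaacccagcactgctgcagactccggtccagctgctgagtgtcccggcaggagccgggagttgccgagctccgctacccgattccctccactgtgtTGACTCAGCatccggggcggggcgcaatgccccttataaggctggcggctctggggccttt
Prdx1 (chr5:135383656-135383905, plus strand): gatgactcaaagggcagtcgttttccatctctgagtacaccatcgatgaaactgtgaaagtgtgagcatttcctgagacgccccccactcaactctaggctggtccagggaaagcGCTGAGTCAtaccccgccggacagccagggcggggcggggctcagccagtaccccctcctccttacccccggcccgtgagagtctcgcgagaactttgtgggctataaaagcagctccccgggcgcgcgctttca
Sod2 (chr1:50050169-50050418, minus strand): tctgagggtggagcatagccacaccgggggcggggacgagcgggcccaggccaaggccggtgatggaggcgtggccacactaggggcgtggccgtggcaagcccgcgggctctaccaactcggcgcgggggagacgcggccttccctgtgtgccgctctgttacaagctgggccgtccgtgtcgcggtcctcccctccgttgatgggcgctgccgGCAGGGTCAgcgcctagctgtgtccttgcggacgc
Nqo1 (chr19:52220268-52220517, minus strand): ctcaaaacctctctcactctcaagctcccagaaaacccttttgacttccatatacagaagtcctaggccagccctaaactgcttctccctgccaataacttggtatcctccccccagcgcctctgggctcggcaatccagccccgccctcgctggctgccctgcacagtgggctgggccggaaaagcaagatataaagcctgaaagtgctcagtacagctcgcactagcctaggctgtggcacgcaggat

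In Gstp1 the match lies 61 to 53 bases before the start, on the strand shown, and in Prdx1 it lies 135 to 127 bases before the start, on the opposite strand. Both of these matches also hold TGACTCA, the motif of AP-1 factors, and the match in Sod2, 35 to 27 bases before the start on the opposite strand, does not. The genes with a match had log2 ratios of 0.36 (Gstp1), -0.16 (Prdx1) and -0.76 (Sod2), all within 2-fold. A match describes these letters only, and no binding was measured. The E-box CACGTG, held by 5.59% of all promoters, was in none of the 8 windows searched. CACGAG, which is part of the carbohydrate response element, was in 1 of the 8 windows searched, that of Txn1, on the opposite strand, and in 5.39% of all promoters.

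A list of 61 further genes of glutathione, thioredoxin and electrophile metabolism was examined, of which 42 had a probe set and 36 were measured. Of the 36, 3 were past 2-fold in the endocardial direction and 2 in the aortic direction, against the same 5.93% and 4.16% of all measured genes. Their median log2 ratio was -0.12, and 16 were above 0 and 20 below. With the background limit as the floor, 26 were measured, 2 higher and 1 lower, against 3.99% and 2.36% of all genes then measured.

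The 3 higher genes were Mgst3, Ephx1 and Gpx7. Mgst3, a membrane-bound glutathione transferase and peroxidase, read 1059 with aortic and 4296 with endocardial RNA (log2 ratio 2.02). Ephx1, the microsomal epoxide hydrolase, read 1023 and 3407 (1.74). Gpx7, a glutathione peroxidase of the endoplasmic reticulum, read 1554 and 4499 (1.53). All 3 rested on 1 probe set, and all 3 aortic values were under the background limit; against it the log2 ratios are at least 1.30, 0.97 and 1.37.

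Hmox1, the inducible heme oxygenase, was lower on the endocardial array with both of its probe sets. They read 19494 with aortic and 9196 with endocardial RNA (J02722cds_at), and 22881 and 11237 (rc_AI179610_at), all far over the background limit, for a log2 ratio of -1.05. Gstk1, the peroxisomal and mitochondrial kappa-class transferase, had a log2 ratio of -1.03, from 1418 to 692.9, with both values under the background limit. Among the members and the further redox genes, Nqo1 and Hmox1 were thus those whose median was at least 2-fold lower with a probe set over the background limit on both arrays.

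Glutathione transferases other than Gstp1 were measured for 12 genes, with a median log2 ratio of -0.27. Of the 12, 1 was higher (Mgst3) and 1 was lower (Gstk1), against 5.93% and 4.16% of all measured genes, and 10 lay between. With the background limit as the floor, 9 were measured, 1 higher and 0 lower, against 3.99% and 2.36%. The mu-class genes Gstm1 (-0.26, or -0.58 with the background limit as the floor), Gstm2 (-0.41) and Gstm5 (-0.48) were within 2-fold. Of the 3 Gstm1 probe sets, J02810mRNA_s_at read 3657 and 1267 (-1.53). Genes of glutathione synthesis and reduction (Gclc, Gclm, Gss and Gsr) ran from -0.22 to 0.33, but all their probe sets were under the background limit on both arrays. None of these genes was therefore measured with that limit as the floor. Of the other peroxidases and peroxiredoxins, 6 were measured, with Gpx7 already given, Gpx3, the secreted glutathione peroxidase, at -0.47, Gpx4, the lipid peroxide reductase, at -0.40, and Prdx2, Prdx3 and Prdx6 at 0.15, -0.20 and 0.37. The transcription factor gene Nfe2l2 had a log2 ratio of 0.04, with 2 probe sets of opposite sign (-0.22 and 0.29).

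**Figure D4:**
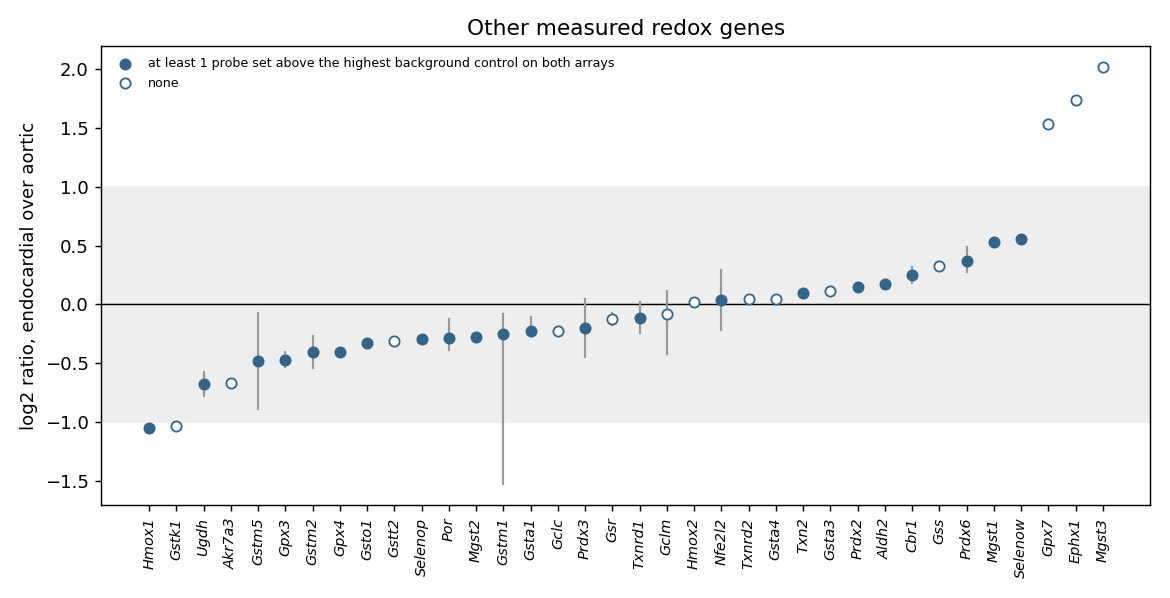
Log2 ratio, endocardial over aortic, of the 36 further redox genes in rising order, with grey lines from the lowest to the highest kept probe set. Filled dots have at least 1 probe set above the background limit on both arrays, and the grey band is the range within 2-fold. The 3 genes above the band (Gpx7, Ephx1, Mgst3) are open dots, and of the 2 below it Hmox1 is filled.

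Enzymes that make superoxide or other oxidants were listed too, 17 genes of which 5 were measured. None was at least 2-fold higher, against 5.93% of all measured genes, and 1 was lower, against 4.16%. That one was the inducible cyclooxygenase gene Ptgs2 (at least 2.38-fold against the floor), which lies within 2-fold when the floor is the background limit (-0.28), where 0 of 5 passed 2-fold either way, against 3.99% and 2.36%. Cyba, the membrane subunit shared by NADPH oxidases, had a log2 ratio of 0.33, reading 10953 with aortic and 13798 with endocardial RNA. Nox4, the oxidase catalytic subunit known in endothelium, and the xanthine oxidoreductase gene Xdh were under the floor on both arrays. Maoa, a mitochondrial monoamine oxidase, had a log2 ratio of 0.23, and the cyclooxygenase gene Ptgs1 one of -0.81, from 2366 to 1354. With the background limit as the floor that of Ptgs1 was -0.44. The nitric oxide synthase of endothelium, Nos3, lay at a median log2 ratio of -0.06 over 4 probe sets, none of which was over the background limit on both arrays.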

How the data were processed

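The deposited table holds linear intensities of 8799 probe sets on each of 2 arrays; 25.8% of the aortic and 24.3% of the endocardial values are at or below 0. The program that summarised probes into them is not named by any label or header read here. Per the file headers, 2 of 41 instrument fields differed between the arrays, namely the scan time and the fluidics module. The 59 control probe sets were left out, and both arrays were scaled to the same 2% trimmed mean (factors 1.00 and 0.999). Genes came from the platform annotation: 7006 probe sets had 1 symbol, 308 several and 1426 none, and of the first kind 6985 matched a RefSeq gene table of assembly GRCr8 by gene identifier, with 0 symbols changed. Background controls are the control probe sets for opposite strands, and for bacterial, yeast and mouse transcripts. With 1 array per group, a fixed 2-fold difference served for counting, without a test, and the counting step was tested on simulated data. The number of arrays limits the precision. Named genes were all members and, of the 2 further lists, those past 2-fold and the 2 highest and 2 lowest; other genes of those lists were named by role after their values were seen. Members and lists were chosen with earlier results of these data known. Python 3.11.15, pandas 2.3.3 and statsmodels 0.14.6 (loess, span 0.4) were used.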

Additional observations from a re-analysis of the deposited data

How the results depend on the processing

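Of 11 alternatives run, 10 were planned and 1, leaving out probe sets of suffix i, r or f, was chosen after seeing the data. The 2 members at least 2-fold higher stayed 2 in every alternative, and the 1 lower stayed 1 except with plain probe sets. There 5 members were measured and 0 were lower (Nqo1 -0.82, from M58495mRNA_at alone), against 3.92% of all genes. Over the alternatives, 2.99% to 9.5% of all genes were higher and 2.36% to 11.4% were lower. Log2 ratios ran from 1.39 to 2.61 for Sod3, from 1.07 to 2.27 for Txnip and from -1.82 to -0.82 for Nqo1. The medians of the 9 genes kept their sign in each alternative that gave a value, and 13 of 95 such values moved by more than the SD of 0.39, all for Sod3, Txnip or Nqo1. Among the further redox genes, the count lower went from 2 to 1 with centring on the median ratio, with the loess, with an offset of 500 in place of the floor, with plain probe sets and with the background limit as the floor. In that order, 3.75%, 3.88%, 3.99%, 3.92% and 2.36% of all genes were lower. The last 2 settings measured 24 and 26 of the further redox genes. The count lower was 6 with no floor, where 39 genes were measured and 4 were higher. Of all genes in that setting, 11.4% were lower and 9.5% higher. Taking 1 probe set per gene, the brightest, gave 3 higher and 3 lower of 36, against 6.51% and 4.46% of all genes. With the floor at the 75th percentile (2576), 25 were measured, 0 higher and 1 lower, against 2.99% and 2.66% of all genes. Fewer or more dim probe sets are tested under the floor settings. Taking the brightest probe set left Z24721_at alone for Sod3 (1.71) and J02679_s_at alone for Nqo1 (-1.82). In the main setting the 2 lower further redox genes, Hmox1 (-1.05) and Gstk1 (-1.03), lay close to the 2-fold line. The cause of the remaining moves was not tested. No paired analysis was possible because each group has 1 array.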

Other observations

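The disagreement among the Sod1 probe sets was wide for these arrays. Over 1432 probe sets that exceeded the floor on each array, of genes with several such sets, the log2 ratio of M25157mRNA_i_at lay 2.61 from the median of the other Sod1 probe sets, the 3rd largest deviation. The median absolute deviation was 0.24, and 6.15% of these probe sets deviated by at least 1. Among the 24 probe sets with the identifier suffix i, the median was 0.29, and 2 deviated by at least 1. The 3 Sod1 probe sets carry the identifiers of different database sequences, and which transcripts each detects was not examined here.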
